A study of Sorghum bicolor with 12 samples.

Results

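The genes described here are 4 abundant chlorophyll a-b binding protein genes of sorghum (Sorghum bicolor), a C4 grass, measured in leaves of 2 cultivars with and without drought. They were chosen by gene name: LOC8062994 (chlorophyll a-b binding protein 5), LOC8074608 (M9), LOC8057152 (CP26) and LOC110430685 (protein 8). They are 4 of the 33897 genes in the deposited tables, and all 4 were among the 20873 genes tested. The groups were JL drought and JL control, from leaves of the cultivar Jinliang 5 (JL) under drought and with a normal water supply, and SCS drought and SCS control, from leaves of the cultivar Sanchisan (SCS) under the same conditions. Each group held 3 RNA-seq libraries, 12 in all. The duration and severity of the drought, the plants' age and the time of day of sampling are not given in the labels. No label ties a library to its own plant, so a p-value here measures only how far these samples spread, which may be technical.

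Chlorophyll a-b binding proteins are the antenna of photosynthesis: they hold chlorophyll and carotenoids in the thylakoid membrane and pass absorbed light energy to the reaction centres. They are encoded in the nucleus and imported into the chloroplast, and their transcripts are among the most abundant of a green leaf. Photosystem II is served by trimers of the major complex LHCII and by the minor monomeric proteins CP29, CP26 and CP24, which sit between the trimers and the core, while photosystem I carries its own antenna belt, LHCI. In C4 grasses photosystem II is richest in mesophyll cells, which surround the bundle sheath.

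The 4 genes lie on 4 chromosomes, and the deposited table gives each a position that is the same in the RefSeq gene table of assembly Sorghum_bicolor_NCBIv3. The protein 5 gene lies on chromosome 1 (14892326 to 14893532, minus strand), and its product is annotated by likeness to a rice chlorophyll a-b binding protein. M9 lies on chromosome 9 (57389148 to 57390211, plus strand), and its gene span equals its transcript length of 1064 bases, so it has no intron in this annotation. It is annotated by likeness to a maize LHCII type I protein, a subunit of the major trimer. CP26 lies on chromosome 5 (12277886 to 12279910, minus strand) and is the minor photosystem II antenna protein known in Arabidopsis as LHCB5. Protein 8 lies on chromosome 10 (52995719 to 52997456, plus strand) and is annotated by likeness to a tomato photosystem I antenna protein. Ranked by mean FPKM (fragments scaled for transcript length and library size, as deposited) over the 12 libraries, they were the 3rd, 4th, 7th and 16th of all genes.

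Library totals were 15.04 to 18.36 M counts, so counting error is small for genes at these levels: the lowest value of the 4 genes in any library was 1532 counts, for CP26 in SCS drought library 3. Together the 4 genes took 2.02 to 4.45% of all counts in JL drought, 1.59 to 3.59% in JL control, 0.232 to 1.2% in SCS drought and 0.515 to 1.67% in SCS control. Libraries of 1 group differed several-fold in these genes, and SCS drought library 2 stood above the other SCS drought libraries in all 4, so results that rest on it are given with and without it. Mesophyll enzymes of the C4 cycle were present in every library, with a summed level of at least 1667 FPKM, and 21 kafirin and zein genes, which encode seed storage proteins, summed to at most 0.198 FPKM. The treatment of reads that match several close copies of a gene was not given in the sources used here. Antenna genes have such copies in grasses, so the value of a single gene, M9 above all among the LHCII type 1 genes, is uncertain to that extent. In whole leaves, fewer cells of a type and less RNA per cell cannot be told apart.

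**Figure D1:**
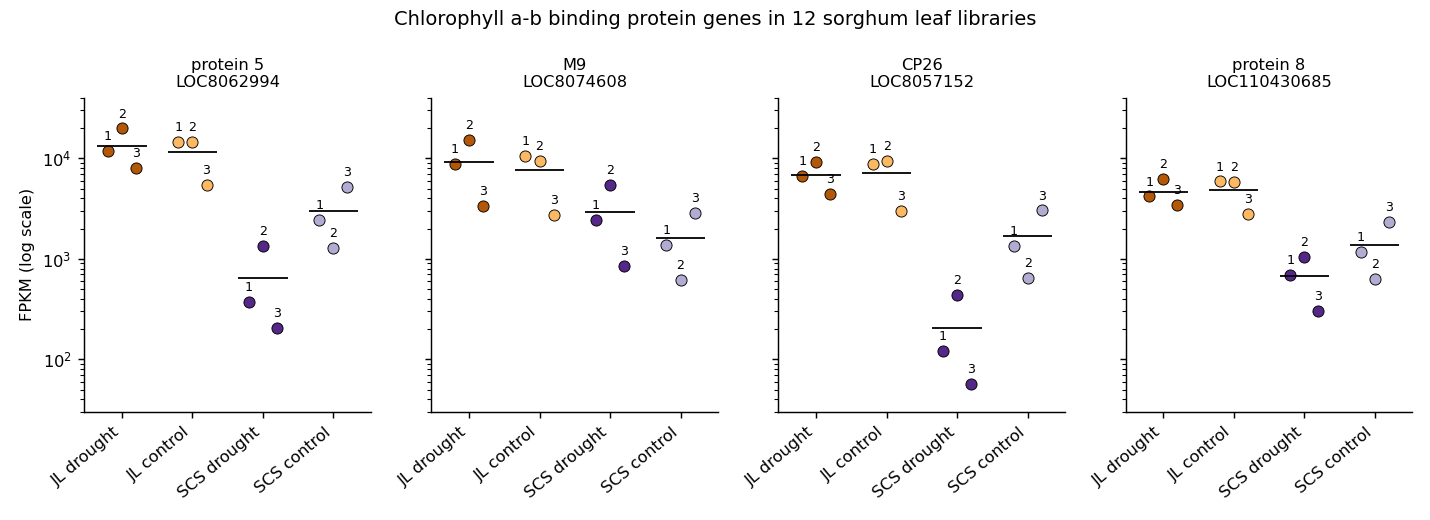
FPKM (log axis) of the 4 genes in the 12 libraries, 1 panel per gene, with a point per library marked by its number and a line at the group mean. The JL libraries lie between 2719 and 19850 FPKM for every gene, while in SCS drought CP26 reaches down to 56.4 FPKM and M9 stays between 849 and 5483 FPKM.

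Under drought in SCS, 3 of the 4 genes had lower group means and M9 had a higher one, and none of the 4 differences passed the test. The protein 5 gene stood at 371, 1354 and 204 FPKM in SCS drought libraries 1, 2 and 3, against 2454, 1289 and 5199 FPKM in SCS control libraries 1, 2 and 3. The groups overlapped only because drought library 2 was above control library 2. Its mean was 643 ± 622 FPKM in SCS drought and 2980 ± 2008 FPKM in SCS control (SD, n = 3 each). By edgeR's quasi-likelihood test the log2 fold change was -2.25 (SE 0.82, adjusted p = 0.114), a level 4.74 times lower in drought.

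M9 went the other way in its means and overlapped widely between the groups. It stood at 2438, 5483 and 849 FPKM in the SCS drought libraries, against 1374, 614 and 2861 FPKM in the SCS control libraries. The lowest drought library was above the lowest control library, and the highest control library was above 2 of the 3 drought libraries. The means were 2923 ± 2355 FPKM in SCS drought and 1617 ± 1143 FPKM in SCS control (SD, n = 3 each), and the log2 fold change was 0.82 (SE 0.85, edgeR adjusted p = 0.582). Without SCS drought library 2 it was -0.01, so the direction for M9 rests on that library.

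CP26 showed the widest gap of the 4. It stood at 122, 436 and 56.4 FPKM in the SCS drought libraries, against 1337, 650 and 3029 FPKM in the SCS control libraries. Every drought library was below every control library. The mean was 205 ± 203 FPKM in SCS drought and 1672 ± 1224 FPKM in SCS control (SD, n = 3 each), 8.35 times lower by the fit, with a log2 fold change of -3.06 (SE 0.87, edgeR adjusted p = 0.0511). In 19.2% of all tested genes the SCS drought libraries were likewise all below the SCS control libraries.

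Protein 8, of the photosystem I antenna, stood at 688, 1041 and 301 FPKM in the SCS drought libraries, against 1173, 629 and 2352 FPKM in the SCS control libraries. The groups overlapped, since control library 2 was below drought libraries 1 and 2. The mean was 677 ± 370 FPKM in SCS drought and 1385 ± 881 FPKM in SCS control (SD, n = 3 each), with a log2 fold change of -1.07 (SE 0.61, edgeR adjusted p = 0.296).

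In edgeR 0 of the 4 genes were called at an adjusted p below 0.05, against 9.51% of all tested genes. At an unadjusted p below 0.05 there were 2, protein 5 and CP26, against 26.2% of all tested genes. DESeq2 called the same 2 as lower (adjusted p = 0.0213 and 0.00129). It called 4041 genes in all there, and gave no adjusted p for 11626 of the 33897 genes. CP26 was also called lower with a stricter filter on low counts (adjusted p = 0.0371) and by limma on log2(FPKM + 1) (adjusted p = 0.0356), so its position relative to the threshold depends on the method. Without SCS drought library 2, edgeR called both, with log2 fold changes of -3.41 for protein 5 and -4.27 for CP26 (adjusted p = 0.0457 and 0.0297). Without SCS control library 3 the values were -1.56 and -2.30 and neither was called (adjusted p = 0.33 and 0.179). The change of protein 8 then was -0.43 and that of M9 1.53, again without a call (adjusted p = 0.728 and 0.409). Over the edgeR fits with 1 library left out, 533 to 2619 of all tested genes were called.

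**Figure D2:**
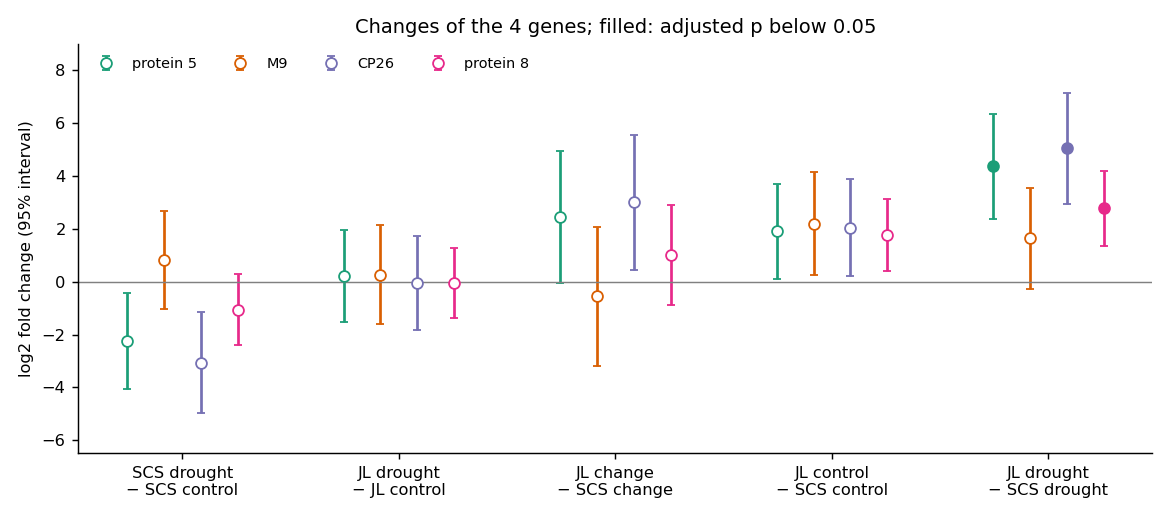
Log2 fold change of each gene in the 5 comparisons, with the 95% interval of the edgeR fit; filled points have an adjusted p below 0.05. Only 3 points are filled, protein 5, CP26 and protein 8 in JL drought against SCS drought, and the 4 JL drought changes lie between -0.06 and 0.27.

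The make-up of the antenna transcripts differed between SCS drought and SCS control in a way that the levels alone hide. The summed FPKM of 20 annotated genes of the family (the 4 genes and 16 others, early light-inducible proteins included) was 7858 ± 4720 in SCS drought and 15910 ± 10950 in SCS control (SD, n = 3 each). M9 made up 31.7, 43.3 and 26.3% of that sum in SCS drought libraries 1, 2 and 3, against 10.9, 8.73 and 10.2% in the SCS control libraries. The groups were far apart, and every SCS drought library was also above the 8.64 to 13.6% of JL drought and the 9.20 to 11.7% of JL control.

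The shares of protein 5 and CP26 were lower in each SCS drought library. Protein 5 made up 4.82 to 10.7% of the family's FPKM in SCS drought and 18.3 to 19.6% in SCS control. CP26 made up 1.58 to 3.44% in SCS drought and 9.24 to 10.8% in SCS control. The share of protein 8 was alike in both groups, 8.23 to 9.33% in SCS drought and 8.36 to 9.35% in SCS control. Parts of 1 sum are not independent, so a gain of M9 alone lowers the other shares.

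**Figure D3:**
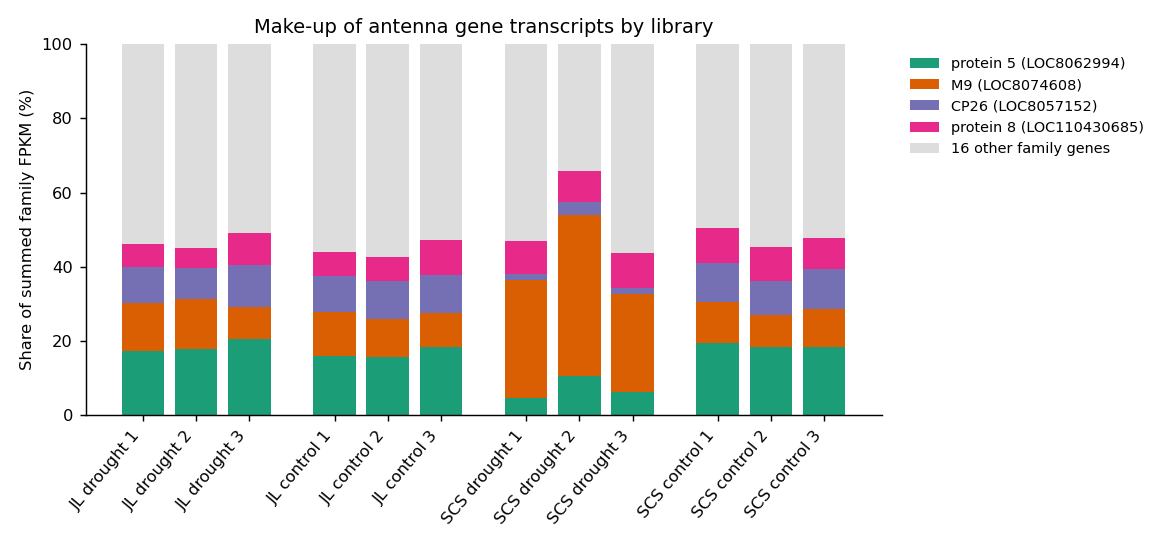
Share of the summed FPKM of 20 antenna family genes taken by each of the 4 genes and by the 16 others, 1 bar per library. In SCS drought M9 takes 26.3 to 43.3%, against 8.73 to 10.9% in SCS control, and CP26 takes 1.58 to 3.44%, against 9.24 to 10.8%.

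Ratios within a library do not depend on its scaling or on a change that all antenna genes share. The log2 ratio of M9 to protein 5 in FPKM was 2.26 ± 0.39 in SCS drought and -0.92 ± 0.13 in SCS control (SD, n = 3 each), a difference of 3.19, or 9.10-fold. That of M9 to CP26 was 3.96 ± 0.34 in SCS drought and -0.04 ± 0.07 in SCS control, a difference of 4.0, or 16.1-fold. That of M9 to protein 8 was 1.91 ± 0.46 in SCS drought and 0.16 ± 0.17 in SCS control, a difference of 1.75, or 3.36-fold. All 3 ratios separated the groups without overlap, and so did the other 3 ratios among the 4 genes. The log2 ratio of CP26 to protein 8 was -2.06 ± 0.70 in SCS drought and 0.20 ± 0.16 in SCS control, a difference of -2.26, and that of protein 5 to protein 8 was -0.36 ± 0.66 in SCS drought and 1.08 ± 0.06 in SCS control, a difference of -1.44. The exact two-sided permutation test gave p = 0.1 for each of the 6, which is the smallest that 3 libraries against 3 allow, and 0.2 after Benjamini-Hochberg adjustment over the 24 ratios and comparisons computed. With any 1 of the 6 libraries left out, the differences of the M9 ratios, in the order given, were 2.96 to 3.31, 3.82 to 4.16 and 1.502 to 1.952. The ratio of protein 5 to CP26 differed by 0.82 on the log2 scale (1.70 ± 0.14 in SCS drought, 0.88 ± 0.10 in SCS control).

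In a fit that scaled each library to the summed counts of the other 16 family genes, added after values were seen, M9 was higher in SCS drought by 2.05 on the log2 scale (SE 0.63, edgeR adjusted p = 0.0822). CP26 was at -1.85 (adjusted p = 0.144), protein 5 at -1.05 (adjusted p = 0.359) and protein 8 at 0.21 (adjusted p = 0.833). On this scale the median of all genes was 1.09, so protein 8 changes sign only because the scale itself is shifted. The same shift raised the value of M9, which was 0.82 in the main fit. None of the 4 was called, against 3.22% of all tested genes, and leaving out 1 library gave M9 changes of 1.58 to 2.29 with adjusted p of 0.0495 to 0.303.

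Of the nearest relatives of M9 by annotation, 3 genes for chlorophyll a-b binding proteins of LHCII type 1, 1 fell in SCS drought. Their summed level was 112, 48.9 and 43.9 FPKM in the SCS drought libraries, against 1051, 412 and 2550 FPKM in the SCS control libraries, with no overlap. LOC8082496, the most abundant of them, fell to 5.38, 9.30 and 23.4 FPKM in the SCS drought libraries, against 721, 293 and 1844 FPKM in the SCS control libraries. Its log2 fold change was -6.27 (SE 1.04, edgeR adjusted p = 0.00758). The other 2 were not called: LOC8082204 was at -3.22 (adjusted p = 0.0606) and the weakly expressed LOC8064653 at 0.20 (adjusted p = 0.753).

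Of the summed FPKM of M9 and these 3 genes, M9 therefore made up 95.1 to 99.1% in SCS drought, against 52.9 to 59.9% in SCS control. The shares were 45.1 to 61.9% in JL drought and 37.5 to 47.6% in JL control. Summed, M9 and the 3 others were at 2992 ± 2351 FPKM in SCS drought and 2954 ± 2240 FPKM in SCS control (SD, n = 3 each), a difference far below the spread between libraries. This set was taken by product name, and the M9 share depends on which genes are counted. LOC8077219 (chlorophyll a-b binding protein 1), outside the set, stood at 643, 497 and 253 FPKM in the SCS drought libraries, above the 3 others together. In the SCS control libraries it stood at 655, 476 and 1415 FPKM. Reads that match several copies could have been moved between M9 and the 3 others, dropped, or counted for other family genes. The part of such reads in the shift and in the sum was not tested.

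Under drought in JL the 4 genes were at much the same level as in control. Protein 5 stood at 11850, 19850 and 8060 FPKM in the JL drought libraries, against 14550, 14590 and 5429 FPKM in the JL control libraries. M9 stood at 8820, 15170 and 3391 FPKM in the JL drought libraries, against 10610, 9476 and 2719 FPKM in the JL control libraries. In both genes drought library 2 was the highest and control library 3 the lowest, with the other libraries between them.

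CP26 stood at 6721, 9186 and 4434 FPKM in the JL drought libraries, against 8789, 9475 and 3011 FPKM in the JL control libraries. Protein 8 stood at 4176, 6267 and 3429 FPKM in the JL drought libraries, against 5902, 5818 and 2815 FPKM in the JL control libraries. For all 4 genes the groups overlapped, and control library 3 was the lowest of the 6 libraries.

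The JL drought log2 fold changes were 0.21 for protein 5 (95% interval -1.53 to 1.95), 0.27 for M9 (-1.59 to 2.13), -0.05 for CP26 (-1.83 to 1.72) and -0.06 for protein 8 (-1.38 to 1.27). By edgeR 0 of the 4 were called (adjusted p = 1 for each), as were 0% of all tested genes, and 0 had an unadjusted p below 0.05. DESeq2 called 0 of the 4 and 42 of all genes, and edgeR found 775 genes (3.71%) with an unadjusted p below 0.05. The intervals leave room for changes of more than 2-fold in either direction, so the likeness of the means does not show that drought left these genes as they were. The signs of all 4 turned with 1 library left out.

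The ratios of M9 to the other 3 genes moved little in JL. They differed between JL drought and JL control by 0.00 on the log2 scale against protein 5, by 0.20 against CP26 and by 0.28 against protein 8, less than the spread between JL drought libraries (SD 0.49 to 0.70).

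The test of whether the drought changes differed between the cultivars, the JL change minus the SCS change, called 0 of the 4 genes, against 0.513% of all tested genes. The differences were 2.46 for protein 5 (SE 1.13, edgeR adjusted p = 0.328), -0.55 for M9 (SE 1.19, adjusted p = 0.865), 3.01 for CP26 (SE 1.16, adjusted p = 0.253) and 1.01 for protein 8 (SE 0.85, adjusted p = 0.607). CP26 alone had an unadjusted edgeR p below 0.05 (0.0255), as did 15.4% of all tested genes, and DESeq2 called none of the 4. No difference between the cultivars in the drought change of these genes passed the test, although that of CP26 was 8.05-fold in the fit. With 1 library left out, the CP26 difference ran from 2.26 without SCS control library 3 to 4.21 without SCS drought library 2 on the log2 scale, and it was not called in any of these fits (edgeR adjusted p = 0.136 to 0.461). For M9 the sign turned without SCS drought library 2, to 0.28.

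**Figure D4:**
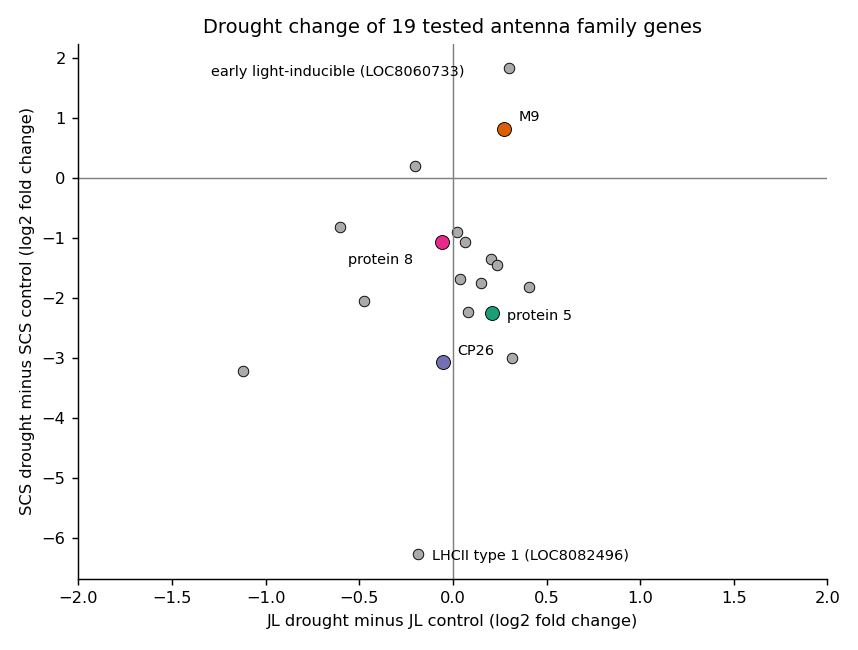
Log2 fold change under drought in SCS (vertical) against that in JL (horizontal) for the 19 tested antenna family genes, a point per gene. The JL changes lie between -1.12 and 0.40, and the SCS changes between -6.27 for LOC8082496 and 1.83 for LOC8060733, with M9 at 0.82.

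Between the cultivars, JL had the higher mean of all 4 genes with and without drought. These comparisons use the same libraries as the drought comparisons, so their values are not independent of those above. In control, protein 5 averaged 11520 ± 5279 FPKM in JL and 2980 ± 2008 FPKM in SCS, and M9 averaged 7601 ± 4266 FPKM in JL and 1617 ± 1143 FPKM in SCS (SD, n = 3 each). CP26 averaged 7092 ± 3551 FPKM in JL and 1672 ± 1224 FPKM in SCS, and protein 8 averaged 4845 ± 1759 FPKM in JL and 1385 ± 881 FPKM in SCS. The log2 fold changes were 1.92, 2.20, 2.05 and 1.77 in that order. With 1 library left out they ran from 1.55 to 2.52 for protein 5, from 1.804 to 2.83 for M9, from 1.66 to 2.73 for CP26 and from 1.42 to 2.33 for protein 8, each lowest without SCS control library 2 and highest without SCS control library 3, and none was called (edgeR adjusted p = 0.236 to 0.748).

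None of these control differences was called by edgeR (adjusted p = 0.332, 0.318, 0.323 and 0.295), against 0.024% of all tested genes. All 4 had an unadjusted p below 0.05, as did 14.4% of all tested genes, and DESeq2 called 0 of the 4. For protein 5 and protein 8 every JL control library was above every SCS control library, as in 12.3% of all tested genes. For M9 and CP26 the lowest JL control library was below the highest SCS control library.

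Under drought 3 of the 4 genes were called as higher in JL, with larger fitted differences than in control, and M9 was not. Protein 5 averaged 13250 ± 6017 FPKM in JL drought and 643 ± 622 FPKM in SCS drought, 20.7-fold higher in JL (log2 4.37, SE 0.90, edgeR adjusted p = 0.00985). CP26 averaged 6780 ± 2376 FPKM in JL drought and 205 ± 203 FPKM in SCS drought, 33.3-fold higher in JL (log2 5.06, SE 0.95, adjusted p = 0.0067 by edgeR). Protein 8 averaged 4624 ± 1471 FPKM in JL drought and 677 ± 370 FPKM in SCS drought, 6.88-fold higher in JL (log2 2.78, SE 0.64, edgeR adjusted p = 0.0154). For these 3 genes no library of JL drought was as low as the highest of SCS drought. M9 averaged 9126 ± 5894 FPKM in JL drought and 2923 ± 2355 FPKM in SCS drought, and its difference of 1.65 on the log2 scale (SE 0.86, edgeR adjusted p = 0.207) was not called, with JL drought library 3 below SCS drought library 2.

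The 3 calls of 4 compare with 11.2% of all tested genes called in that direction, and the 3 genes of 4 without overlap with 17.2%. The test of whether these differences change between control and drought is the interaction above, which called none of the 4. Fitted on these 2 groups alone, only CP26 remained called (adjusted p = 0.0375), while protein 5 and protein 8 had an edgeR adjusted p of 0.0501 and 0.0531. Protein 8 was also not called without SCS drought library 1 (edgeR adjusted p = 0.0608) or by limma on log2(FPKM + 1) without a filter on low values (adjusted p = 0.055). Without SCS drought library 2 the log2 differences were larger for all 3, at 5.54 for protein 5, 6.26 for CP26 and 3.24 for protein 8, and all 3 were called.

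The order of the 4 genes by FPKM set SCS drought apart from the other groups. Protein 5 was the most abundant of the 4 in all 9 libraries of JL drought, JL control and SCS control. In the 3 SCS drought libraries M9 was the most abundant and CP26 the least. M9 ranked 8th, 3rd and 21st of all genes by FPKM in SCS drought libraries 1, 2 and 3, while CP26 ranked 701st, 106th and 1388th there. Elsewhere the lowest of the 4 in any library was never below rank 43.

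Libraries of a group differed widely, and the 4 genes differed together. The ratio of the highest to the lowest library, in CPM (counts per library size, scaled by TMM), was 6.74 for protein 5, 6.56 for M9, 7.86 for CP26 and 3.52 for protein 8 in SCS drought. In SCS control it was 4.03, 4.65, 4.65 and 3.73 in the same order of genes. In JL drought it was 2.41, 4.38, 2.03 and 1.79, and in JL control 2.65, 3.81, 3.11 and 2.05. CP26 spread most in SCS drought, and M9 spread most of the 4 in both JL groups.

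Set against all tested genes, the within-group SD of log2 CPM was above the median for all 4 in SCS and JL control, and for M9 alone in JL drought. In SCS control the 4 genes had SDs of 0.95 to 1.11, against a median of 0.41 for all tested genes, and lay at percentiles of 85.3 to 89.4. In SCS drought their SDs were 0.92 to 1.5 against a median of 0.58, at percentiles from 70.7 for protein 8 to 86.7 for CP26. In JL drought protein 5, CP26 and protein 8 had SDs of 0.64, 0.51 and 0.43, all below the median of 0.66, while M9 had 1.08. In JL control the SDs were 0.60 to 1.07 against a median of 0.43. The biological coefficient of variation in the fit was 62.3% for protein 5, 67.5% for M9, 64.8% for CP26 and 49.7% for protein 8, against a common value of 63.3%. Among all tested genes these lay at percentiles of 66.8, 71.1, 69.0 and 52.3 in that order.

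Within each group the libraries took the same order for all 4 genes, except that JL control libraries 1 and 2, which were close, changed places. Library 2 was the highest and library 3 the lowest in SCS drought and in JL drought, library 3 was the highest and library 2 the lowest in SCS control, and library 3 was the lowest in JL control. Pairs of the 4 genes had a correlation of 0.953 to 0.994 between their deviations from the group means over the 12 libraries. That describes 12 libraries that share depth and scaling. The labels do not say whether equal library numbers pair libraries across groups.

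**Figure D5:**
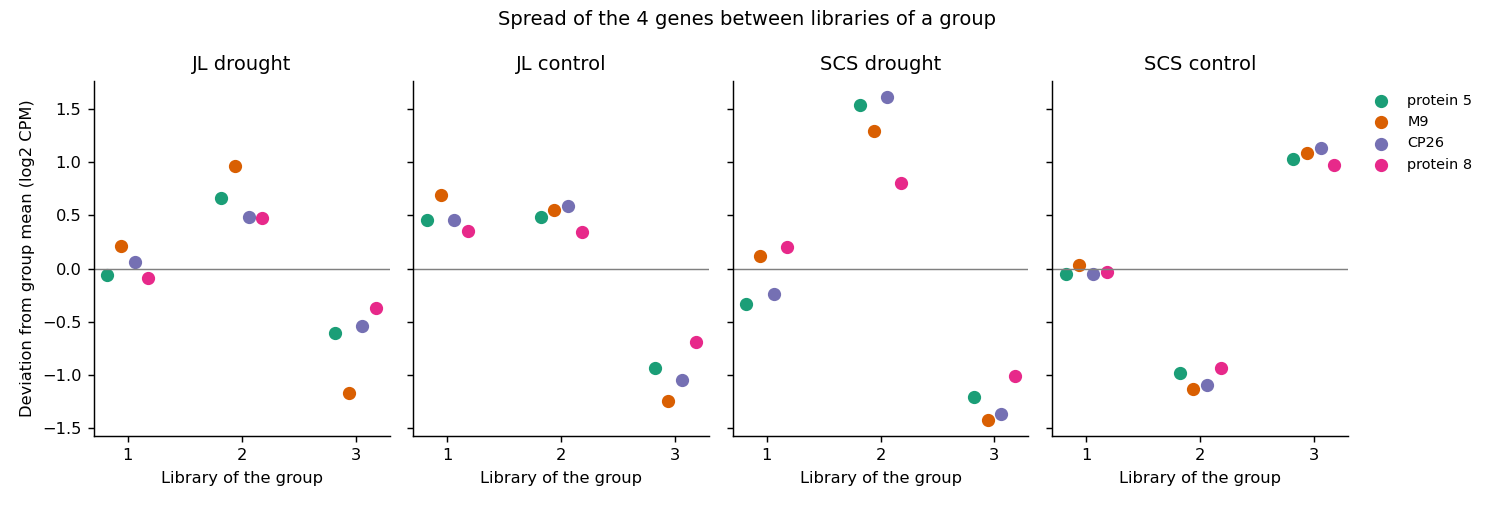
Deviation of each library from its group mean in log2 CPM for the 4 genes, 1 panel per group and a colour per gene. The 4 colours move together in every group, with SCS drought library 2 between 0.80 and 1.61 above its group mean and library 3 between 1.01 and 1.42 below it.

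Other lists went with or against these library differences. The median correlation with the 4 genes in deviations from the group means was 0.92 to 0.95 for 9 photosystem I genes and 0.69 to 0.75 for 26 chlorophyll synthesis genes, against -0.04 to -0.02 for all tested genes, over 12 libraries that share depth and scaling. It was 0.61 to 0.69 for 23 photosystem II genes and 0.63 to 0.75 for 13 mesophyll markers. It was 0.71 to 0.83 for the 15 other family genes, 0.63 to 0.72 for 7 insertion and state transition genes, 0.37 to 0.52 for 3 GLK genes and 0.35 to 0.48 for 11 bundle sheath markers. For 13 chlorophyll breakdown genes it was -0.48 to -0.30, and for 15 clock genes -0.18 to 0.02. The sampling time of the libraries is not given, and its part in the spread was not tested.

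Over the 12 libraries protein 5 and CP26 were nearly parallel (Pearson r = 0.996 of log2 CPM), and protein 8 followed them (0.976 with protein 5, 0.964 with CP26). M9 stood apart, with r of 0.765 to protein 5, 0.717 to CP26 and 0.851 to protein 8. Within groups M9 had r of 0.954 to 0.959 to the other 3, so its departure lay between groups, in SCS drought. These are descriptions over 12 libraries that share groups and scaling.

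The genes with the pattern most like each member, ranked by Pearson r of log2 CPM over the 12 libraries, differed in kind. For protein 8 they were LOC8084161 (photosystem I reaction center subunit III, r = 0.999), LOC8077179 (chlorophyll a-b binding protein 1B-21, 0.997), LOC8079929 (photosystem I subunit psaK, 0.997), LOC8063469 (a rhodanese-like protein, 0.993) and LOC110432431 (photosystem I chlorophyll a/b-binding protein 2, 0.993). For protein 5 they were LOC110432431 (0.990), LOC8054482 (TIC 62, a protein of the chloroplast envelope and thylakoid, 0.989), 2 uncharacterized genes, LOC8055062 and LOC8056105 (0.989 and 0.988), and LOC110431678 (photosystem I reaction center subunit II, 0.987).

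For CP26 they were LOC8058886 (phosphoenolpyruvate carboxylase 3, r = 0.991), LOC110433187 (photosystem I reaction center subunit IV, 0.990), LOC8066439 (soluble starch synthase 2-2, 0.990), the uncharacterized LOC8075794 (0.987) and LOC8066159 (glycolipid transfer protein 1, 0.987). Phosphoenolpyruvate carboxylase fixes carbon in C4 mesophyll cells. None of the 5 genes most like M9 was an antenna or photosystem gene: LOC8060862 (putative ATPase N2B, r = 0.968), LOC110434941 (cyclin-G-associated kinase, 0.951), LOC8072281 (maltose excess protein 1-like, 0.949), LOC110433145 (a BTB/POZ domain protein, 0.948) and LOC8055351 (NFXL1, 0.947). These 5 were far less abundant, with mean levels of 3.17 to 31.8 FPKM.

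Most of the rest of the antenna family had negative fold changes in SCS drought. Of the 15 other family genes tested, 2 fell, LOC8082496 above and LOC8075198 (photosystem I chlorophyll a/b-binding protein 5, log2 fold change -2.23, SE 0.43, edgeR adjusted p = 0.0132), and 0 rose. Of these 15, 13 had a negative value, the median was -1.69, and the median of all genes was -0.07. Among the most abundant others, LOC110437218 (chlorophyll a-b binding protein 4) was at -1.34 (adjusted p = 0.384) and LOC110432431 at -1.69 (adjusted p = 0.242). The early light-inducible gene LOC8060733, whose barley relative is known from greening and light stress, was at 1.83 (adjusted p = 0.106). At an unadjusted p below 0.05 there were 1 higher and 5 lower, as by DESeq2. M9 and LOC8060733 were thus, with LOC8064653, the 3 of 19 tested family genes with a positive value.

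Genes of the photosystem II and photosystem I lists were called lower in part. Of all tested genes 4.09% rose and 5.41% fell in SCS drought. Of 23 photosystem II genes 10 fell and 0 rose in SCS drought (median -1.8), among them LOC8070565 (photosystem II 5 kDa protein, -3.35, edgeR adjusted p = 0.00465), LOC8081314 (PSB28, -2.07, adjusted p = 0.0062) and LOC8085721 (psbP-like protein 1, -2.59, adjusted p = 0.01). Of 9 photosystem I genes 3 fell and 0 rose (median -1.78): LOC8055848 (subunit V, -2.69), LOC110433187 (subunit IV, -2.17) and LOC110437651 (subunit N, -1.79). Of 26 chlorophyll synthesis genes 2 fell and 0 rose (median -0.97), a count near the share of all tested genes: LOC8079551 (glutamyl-tRNA reductase, the first committed step, -4.08, adjusted p = 0.0103 by edgeR) and LOC8077402 (-1.55, adjusted p = 0.0307), for the chlorophyllide a oxygenase that forms chlorophyll b. Counts of 0 higher in these 3 lists were also 0 at an unadjusted p below 0.05 and by DESeq2.

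Of 13 chlorophyll breakdown genes 3 fell and 0 rose in SCS drought (median -0.04), LOC8073690 (STAY-GREEN LIKE, -3.40, edgeR adjusted p = 0.00858), LOC110434678 (pheophytinase, -2.55, adjusted p = 0.0209) and LOC8054816 (7-hydroxymethyl chlorophyll a reductase, -1.11, adjusted p = 0.0286), with 3 higher at an unadjusted p below 0.05 and 1 higher by DESeq2. The summed level of this list, 14 genes with the untested included, was higher in SCS drought, at 581 to 1241 FPKM. In SCS control it was 449 to 499 FPKM, without overlap. That lack of overlap rests on LOC8057813 in SCS drought library 2, where this gene alone gave 361 of the 581 FPKM. In the SCS control libraries LOC8057813 stood at 53.6, 2.82 and 4.05 FPKM. Of 7 genes for antenna protein insertion and state transitions 1 fell, LOC110433977 (ALBINO3, a thylakoid insertase for antenna proteins, -1.46, adjusted p = 0.0159). Of 3 GLK genes, which encode transcription factors of chloroplast development, 0 were called by edgeR, with 1 lower at an unadjusted p below 0.05 and by DESeq2. That gene, LOC8057890 (GLK1), was at -1.67 (edgeR adjusted p = 0.0532). Of 15 clock genes 0 were called by edgeR, with 2 higher and 2 lower at an unadjusted p below 0.05 and 1 higher by DESeq2.

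In JL drought 0 genes of any of these lists were called by edgeR, as in the whole table (775 genes with an unadjusted p below 0.05, 42 by DESeq2). Between JL drought and SCS drought, 12 of the 15 other family genes were higher in JL and 1, LOC8060733, was lower (-2.76, edgeR adjusted p = 0.0194). There 19 of 23 photosystem II genes, 9 of 9 photosystem I genes, 15 of 26 chlorophyll synthesis genes, 7 of 7 insertion and state transition genes, 1 of 3 GLK genes (GLK1) and 4 of 15 clock genes were higher in JL, and 0 of these were lower (all tested genes: 11.2% higher, 7.55% lower). Of the 13 chlorophyll breakdown genes 3 were higher and 2 lower in JL.

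The summed level of mesophyll enzymes was lower in SCS drought, and 3 abundant genes made up most of it. The summed level of 14 mesophyll markers (phosphoenolpyruvate carboxylases, pyruvate phosphate dikinases, NADP malate dehydrogenases and carbonic anhydrases) was 1667 to 4653 FPKM in SCS drought and 10720 to 23890 FPKM in SCS control, without overlap. It was 32710 to 42300 FPKM in JL drought and 29680 to 44900 FPKM in JL control. The 3 abundant genes were LOC110430571, LOC8058886 (phosphoenolpyruvate carboxylase 3) and LOC110433917 (a carbonic anhydrase). LOC8058886 was at 1070 ± 830 FPKM in SCS drought and 6263 ± 2600 FPKM in SCS control, and LOC110433917 at 484 ± 424 FPKM in SCS drought and 2787 ± 1255 FPKM in SCS control (SD, n = 3 each). Neither was called (edgeR adjusted p = 0.0505 and 0.0704). Of the 13 tested, 3 fell and 1 rose in SCS drought, and the median was -0.75. LOC110430571 (pyruvate, phosphate dikinase 1) fell to 1096 ± 391 FPKM in SCS drought, against 6385 ± 2285 FPKM in SCS control (SD, n = 3 each; log2 -2.58, edgeR adjusted p = 0.0227), while LOC8065472 (phosphoenolpyruvate carboxylase 2) was higher by 2.21 (adjusted p = 0.0103). The summed level of 11 bundle sheath markers was 1816 to 2553 FPKM in SCS drought and 3368 to 8801 FPKM in SCS control, and 11370 to 19210 FPKM in JL drought and 9775 to 18370 FPKM in JL control. In SCS drought 4 of these 11 fell and 1 rose. At most 1 mesophyll marker gene and 0 bundle sheath marker genes were at 0 in a library. The part of cell make-up in the levels of the 4 antenna genes was not tested.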

How the data were processed

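Leaf RNA of 12 samples was read by strand-specific RNA-seq, per the labels' protocols. HISAT2 2.0.4, StringTie 1.3.3b and STAR are named, without a role, in the submitters' processing notes. Counting program, strand setting and build: not given in the sources used here. Per gene, the authors deposited whole-number counts, not normalised, and FPKM. The deposited FPKM values equalled count over gene length over a constant per library, 0.758 to 1.41 times the total count and 0.996 to 1.04 times the TMM-scaled size; what set the constant is not stated.

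Counts were tested in R 4.3.3 with edgeR 4.0.16: filterByExpr (20873 genes kept, 13024 removed), TMM factors (0.757 to 1.41), 1 mean per group over all 12 libraries, quasi-likelihood F test and Benjamini-Hochberg adjustment over all tested genes, called at an adjusted p below 0.05. CPM are TMM-scaled, with a prior count of 2 on the log scale, and correlations use these. The fit was tested on simulated data. Comparisons share libraries. Alternatives were DESeq2 1.42.0, limma 3.58.1 on log2(FPKM + 1) and log2(FPKM + 0.1), RLE and upper-quartile scaling, other filters (none, or 10 CPM in 3 libraries), the compared libraries alone, a replicate block and each library left out. No library repeated another: pairs within a group differed beyond sampling noise (chi-square 39.8 to 276 per gene).

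The 4 genes and the lists were chosen with earlier results of these data known. Lists are patterns on product names; those for clock, mesophyll and photosystem I genes were corrected and the list of insertion and state transition genes was added after the tables had been seen. Named were the 4 genes, of other family genes up to 4 called with the smallest adjusted p and the 3 of highest mean FPKM. Also named were the 5 genes outside the 4 most like each of them, and up to 3 called genes per list in SCS drought. LHCII type 1 genes, LOC8077219, LOC8060733, LOC8065472, LOC8057813 and GLK1 were named after their values were seen. No sequences are shown.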

Additional observations from a re-analysis of the deposited data

How the results depend on the processing

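Of the 20 log2 fold changes (4 genes in 5 comparisons), those with a call kept their direction in every alternative run. For SCS drought against SCS control the count of the 4 genes called, 0 by edgeR, was 1 with the stricter filter, 2 with DESeq2 and 1 with limma on log2(FPKM + 1) or log2(FPKM + 0.1), and 0 to 2 with a library left out. For JL drought against SCS drought it was 3, became 1 with the compared libraries alone and 2 with limma on log2(FPKM + 1) without a filter (protein 8, adjusted p = 0.055), and was 2 to 3 with a library left out. The cause of these shifts was not tested.

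Counts of all genes called moved more. SCS drought against SCS control had 1984, 4041 with DESeq2 and 533 to 2619 with a library left out. JL drought against JL control had 0, 42 with DESeq2 and 0 to 2 with a library left out. The interaction had 107, 212 with the stricter filter, 1329 with DESeq2, 263, 257 and 176 with limma (pseudocounts 1 and 0.1, and 1 without a filter), and 8 to 424 with a library left out. JL control against SCS control had 5, 638 with DESeq2, 11 with the compared libraries alone, 13, 12 and 27 with limma in the same order, and 0 to 6 with a library left out. JL drought against SCS drought had 3916, 6008 with DESeq2, 1247 with the compared libraries alone, and 1811 to 3507 with a library left out.

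Same-numbered libraries correlated at -0.49 to 0.38 in their deviations from the group means, and differently numbered ones at -0.43 to 0.44. With 3 libraries per group these values do not settle whether library numbers pair the samples. A replicate block left the interaction at 17 genes, JL control against SCS control at 0, and M9 in the interaction at 0.002, and it changed no call of the 4 genes.

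Directions that turned all belong to changes that were not called. CP26 in JL drought was 0.042 by limma in all 3 settings. With 1 library left out, the JL drought changes ran from -0.188 to 0.462 for protein 5, from -0.292 to 0.662 for M9, from -0.417 to 0.215 for CP26 and from -0.329 to 0.11 for protein 8. On the scale of the other family genes the last 2 ran from -0.149 to 0.139 and from -0.352 to 0.181. M9 ran from -0.011 to 1.533 in SCS drought and from -1.24 to 0.284 in the interaction, negative and positive, in that order, only without SCS drought library 2. Depth limits none of these values, since each of the 4 genes had 1532 counts or more in every library.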
